A study of Mus musculus with 2 samples.

Results

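The genes of the synaptic vesicle release machinery were followed here from the mouse anterior hypothalamus at 2 ages. They were chosen by gene symbol alone, as every synaptotagmin (Syt), syntaxin (Stx), synaptobrevin or related vesicle protein (Vamp), SNAP protein (Snap23, Snap25, Snap29, Snap47 and Snap91), Munc13 (Unc13), RIM (Rims), complexin (Cplx), Rab3 and synapsin (Syn) in the feature list. This gave 64 of 32289 features. The tissue, which includes the preoptic area, came from male mice aged 22 months in one library and 3 months in the other, with 5 mice pooled in each. The young mice are described as wild-type, and the sources used here do not give the genotype of the aged mice. Nuclei were freed of myelin with magnetic beads, sorted by DAPI stain and profiled on a 10x Genomics chip. A pool of mice gives no spread between animals, so with 1 library per age no test was possible. Age, the pool and the library cannot be told apart, and every 95% interval below covers counting error only.

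Transmitter leaves a neuron when a vesicle docks at the plasma membrane, is primed, and fuses as calcium enters. Fusion is driven by SNARE proteins, with synaptobrevin on the vesicle and syntaxin and SNAP25 on the plasma membrane. Munc13 and RIM proteins ready the vesicle, complexin holds the SNARE bundle near fusion, and synaptotagmin senses the calcium. Rab3 marks the vesicle for docking, and synapsins tether vesicles in reserve. Hypothalamic neurons use much of the same machinery for vesicles that carry peptides.

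After removal of barcodes with under 500 genes or over 5% mitochondrial UMIs (unique molecular identifiers), and of marked doublets, 8229 aged and 9948 young nuclei were left. Of these, 5000 and 6426 were neurons, with a median of 8353 and 7762.5 UMIs. In all, 25 barcodes were shared by both libraries, 0.291% of the aged and 0.24% of the young. Clusters were named from marker genes. In neurons, the 11 neuron markers summed to 24685 CPM (UMIs of a gene scaled to a common class total) aged and 27048 young, and the oligodendrocyte markers to 197 and 170, against 20598 and 20778 in oligodendrocytes. Clusters of 782 aged and 478 young nuclei stayed unnamed and enter no value. Neurons with striatal and thalamic markers lay beside Sim1-, Esr1- and Avp-expressing hypothalamic ones, and the place of these neurons in the tissue was not tested. A glutamatergic sub-cluster led by Slc17a7, Pdzrn3 and Cck held 14 aged and 137 young nuclei, so it stands apart from the rest. Age calls of members in all neurons and in glutamatergic neurons are given with and without it, as are calls between transmitter types. Other values over all neurons include it unless stated. Barcodes with 100 or fewer UMIs served as the measure of free RNA, whose estimated share of neuronal UMIs was 10.3% aged and 10.0% young. The estimate is the level of 19 oligodendrocyte and microglia markers together in neurons over that in free RNA. Oligodendrocyte markers had 2227 and 2171 CPM in free RNA. Microglia markers had 94.6 and 105 CPM in neurons and 605 and 573 in free RNA, which alone gives a higher share. Every free RNA share and subtraction below rests on the joint estimate.

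Of the 64 members, 55 had 200 or more UMIs in neurons of both libraries together. The other 9 were Vamp5, Vamp8, Syt8, Syt15, Rab3d, Cplx3, Cplx4, Stx11 and Unc13d, and Cplx4 was at 0 in both. The 250 bases before the transcription start are shown for 4 members. Unc13a and Rab3a had the same direction of age difference in every neuron type compared, and Syt6 and Unc13c were at opposite ends in 1 neuron type, where Syt6 was highest and Unc13c lowest. Sequences are from RefSeq on GRCm38.p6, written 5′ to 3′ in the direction of the gene, with capitals for the letters GGGCGG and TGACGT on either strand. Unc13a lies on the minus strand (chr8:71671758-71672007), Rab3a on the plus strand (chr8:70754453-70754702), Syt6 on the plus strand (chr3:103574995-103575244) and Unc13c on the minus strand (chr9:73969038-73969287). Rab3a and Syt6 have other listed starts, and the first is shown.
Unc13a: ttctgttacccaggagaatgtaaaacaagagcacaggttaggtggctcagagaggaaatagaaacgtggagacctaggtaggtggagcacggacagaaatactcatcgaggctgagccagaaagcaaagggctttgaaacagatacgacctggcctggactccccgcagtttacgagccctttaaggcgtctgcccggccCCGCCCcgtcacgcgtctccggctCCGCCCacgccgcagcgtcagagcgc
Rab3a: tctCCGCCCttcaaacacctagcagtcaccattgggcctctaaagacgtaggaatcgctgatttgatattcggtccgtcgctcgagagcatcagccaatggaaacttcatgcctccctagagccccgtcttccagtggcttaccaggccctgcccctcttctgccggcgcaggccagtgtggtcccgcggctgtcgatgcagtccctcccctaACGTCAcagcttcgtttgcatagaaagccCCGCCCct
Syt6: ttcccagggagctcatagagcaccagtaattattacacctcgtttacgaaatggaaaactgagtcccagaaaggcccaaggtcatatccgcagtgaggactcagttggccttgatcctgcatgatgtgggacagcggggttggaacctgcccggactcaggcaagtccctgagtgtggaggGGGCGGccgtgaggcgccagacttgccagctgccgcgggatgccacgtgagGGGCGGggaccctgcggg
Unc13c: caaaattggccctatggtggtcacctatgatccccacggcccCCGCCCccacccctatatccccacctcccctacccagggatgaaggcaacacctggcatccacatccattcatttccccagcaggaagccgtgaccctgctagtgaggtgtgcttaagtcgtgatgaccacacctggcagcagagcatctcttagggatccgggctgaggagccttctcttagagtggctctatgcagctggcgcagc
GGGCGG is the GC box bound by Sp1-type factors, and it occurs 2 times in the Unc13a, Rab3a and Syt6 stretches and 1 time in that of Unc13c. TGACGT, the core of a cyclic AMP response element, occurs 1 time in that of Rab3a. The 250 bases before the other listed Rab3a start hold neither. Those before the other Syt6 starts hold GGGCGG 2 times and 1 time.

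Windows ran from 250 bases before to 50 after the start. Members absent from the RefSeq set used, among them Snap25, Vamp2, Syt4 and Rims2, have none. The other 48 of the 64 members had 61 windows. GGGCGG on either strand was found in 68.9% of these windows, against 35.7% of all 32851 windows in the table. The median GC content was 62.0% in member windows and 52.7% in all. TATAAA, the TATA box, was in 4.92% of member windows and 13.6% of all. TGACGT was in 6.56% and 7.51%. CAGCACC, part of the element bound by the repressor REST, was in 9.84% and 7.14%. TGACGT can overlap itself on the opposite strand, and a match is a description of the letters only.

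The level of the machinery in neurons ran over a wide range. Syt1, the fast calcium sensor, had 2896 CPM aged and 2629 young. Rims2 had 1079 and 946 CPM, Rims1 894 and 852, and Snap25 841 and 837. Long genes can give more nuclear UMIs, so genes are set against each other only per kilobase of gene. On that scale Rab3a, the main Rab of synaptic vesicles, had the highest value as counted, at 20.8 CPM per kb aged and 16.1 young. Syt4, a synaptotagmin linked to peptide vesicles, had 16.6 and 13.5, and Vamp2, the main neuronal synaptobrevin, 13.7 and 11.8. Snap25 had 12.2 and 12.1 CPM per kb. The order at the top did not hold once the estimated free RNA was taken off, an alternative chosen after seeing the data. Syt4 then led at 14.5 and 11.7 CPM per kb and Snap25 followed at 11.3 and 11.1. Rab3a had 6.66 and 7.82, and Vamp2 8.11 and 7.61. As counted, the leading member per kb was Cplx2 among complexins (6.43 and 7.34), Stx16, a Golgi syntaxin, among the other syntaxins (6.63 and 6.92), and Syn2 among synapsins (3.12 and 3.08). Among priming factors it was Rims2 in the aged (2.22) and Unc13a in the young library (2.71). Snap91, an adaptor that rebuilds vesicles after fusion, had 2.27 and 2.15 CPM per kb.

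**Figure D1:**
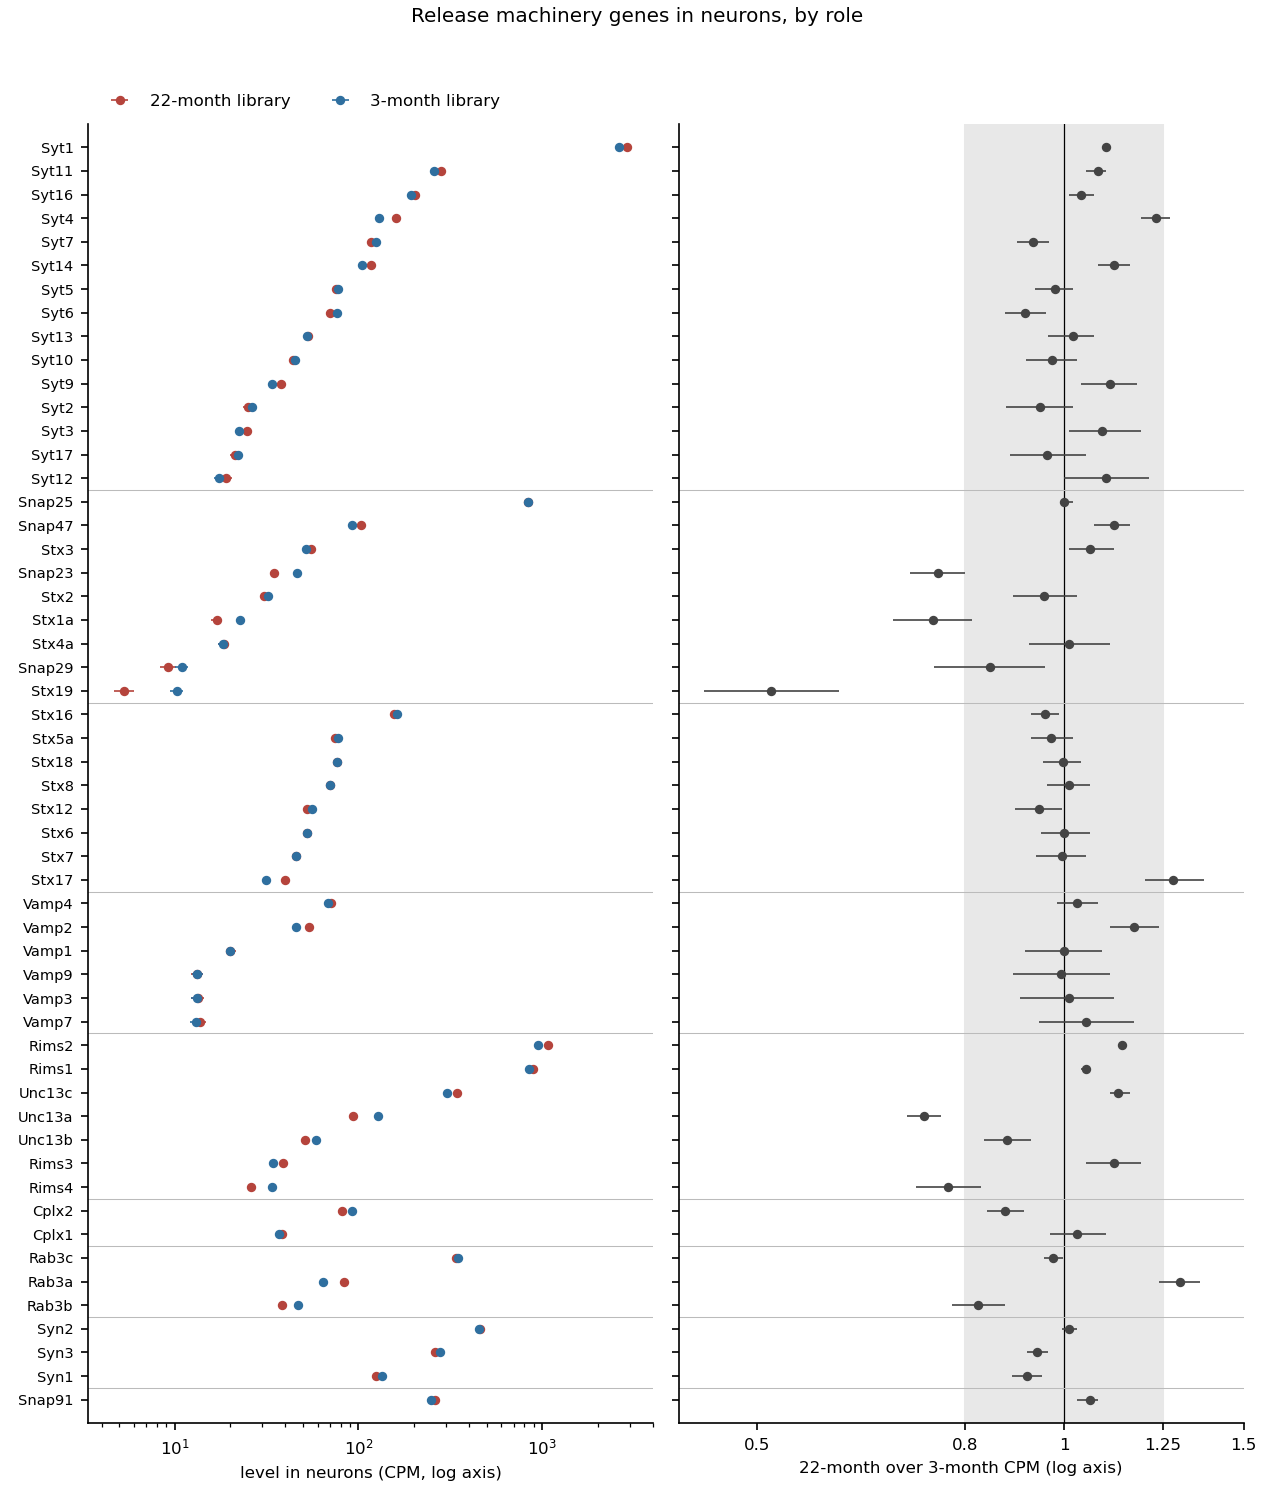
Left, the level in neurons of the members reported (CPM, log axis) in the 22-month and the 3-month library with exact Poisson 95% intervals, and right, the ratio of both with its 95% interval and the 25% band in grey. Members are grouped by role between the lines, and most lie inside the band, with Stx19 farthest below and Rab3a farthest above.

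Most of the machinery differed little between the ages in neurons. A member was called where one library was at least 25% above the other. By that threshold 2 of 55 members were higher in the aged library (3.64%), against 7.80% of all 14614 genes tested. In the other direction 5 were lower (9.09%), against 10.1% of all genes. The first share is below the background, and the second is close to it. The median log2 ratio of the members was 0.00, and that of all genes 0.02. The ratio was above 1 in 28 members and below 1 in 27, where 54.5% of all genes were above 1. Past 1.5-fold no member was higher (all genes 1.34%), and Stx19 alone was lower (all genes 4.22%).

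The synaptotagmins and synapsins stayed inside the band. None of 15 synaptotagmins, with ratios from 0.916 to 1.23, passed the threshold. The 3 synapsins ran from 0.919 to 1.01, the 6 vesicle SNAREs from 0.993 to 1.17 and the 2 complexins from 0.876 to 1.03. Snap91 was at 1.06. Syt4 lay just inside the band, at 160 CPM aged and 130 young, a ratio of 1.23 (1.19 to 1.27). Rab3b lay just inside on the other side, at 38.5 and 46.7 CPM, a ratio of 0.824 (0.776 to 0.876). Of the members past the threshold, Stx17 was nearest to it on the upper side at 1.28 and Rims4 on the lower side at 0.770.

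Unc13a, the Munc13 that primes vesicles at most excitatory synapses, was lower in the aged library. It had 93.5 CPM aged on 4352 UMIs and 128 CPM young on 7149, which is 1.37-fold lower (ratio 0.729, 0.702 to 0.757). Of the other Munc13 genes, Unc13b had 51.4 and 58.5 CPM (0.879), and 51.2 and 54.8 CPM (0.934) without the Slc17a7-led sub-cluster. It was below 1 in 13 of 17 sub-clusters, past the threshold lower in 4 and higher in 1. Unc13c had 345 and 305 CPM (1.13). Unc13d, under the UMI minimum, had 0.838 and 1.22 CPM (0.687, 0.451 to 1.03). Colgalt1, which overlaps Unc13a on the opposite strand, had a ratio of 1.37 (1.29 to 1.46), and the sources used here do not say whether counting used strand. In free RNA Unc13a had 76.8 and 95.4 CPM. Rims4, a short RIM, had 26.1 CPM aged and 34.0 young, a ratio of 0.770 (0.716 to 0.828). Rims1, Rims2 and Rims3 had ratios of 1.05, 1.14 and 1.12.

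Of the plasma membrane SNAREs, 3 of 10 were past the threshold, all lower in the aged library, as were 10.1% of all genes. Snap23, the widely expressed relative of SNAP25, had 34.9 CPM aged and 46.4 young (0.752, 0.706 to 0.80). Stx1a, a syntaxin of the active zone, had 16.9 and 22.7 CPM (0.743, 0.679 to 0.812). Snap25, its partner in fusion, had a ratio of 1.00. Without the Slc17a7-led sub-cluster Stx1a had 16.9 and 21.1 CPM, a ratio of 0.801, so it no longer passed. That left 4 members lower (all genes 10.1%) and the same 2 higher (all genes 7.52%). Stx19 had 5.30 CPM aged on 247 UMIs and 10.3 young on 573, 1.94-fold lower (1.66 to 2.26). It lies within Arl13b on the opposite strand, which had a ratio of 1.03 (0.965 to 1.11). In free RNA Stx19 had 1.74 and 8.73 CPM.

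Rab3a and Stx17 were the members higher in the aged library. Rab3a had 83.3 CPM aged on 3879 UMIs and 64.2 young on 3582, a ratio of 1.30 (1.24 to 1.36). Its level in free RNA was 550 CPM aged and 330 young, several times that in neurons, and an estimated 68.0% and 51.4% of its neuronal UMIs were free RNA. With the free RNA subtracted its ratio was 0.857, and with 50% of it subtracted 1.15. Its ratio outside neurons was 1.39 in oligodendrocytes and 1.37 in microglia, where it had 122 and 126 CPM aged. In oligodendrocyte precursors the ratio of Rab3a was 1.09 (0.721 to 1.63), on 47 aged and 56 young UMIs. Stx17, a syntaxin of autophagosomes, had 39.9 and 31.2 CPM (1.28, 1.20 to 1.37), and in free RNA 18.8 and 25.6. The estimated share of free RNA was above 30% in both libraries for Rab3a, Stx4a and Vamp2, and below 15% in both for 41 of 55 members.

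**Figure D2:**
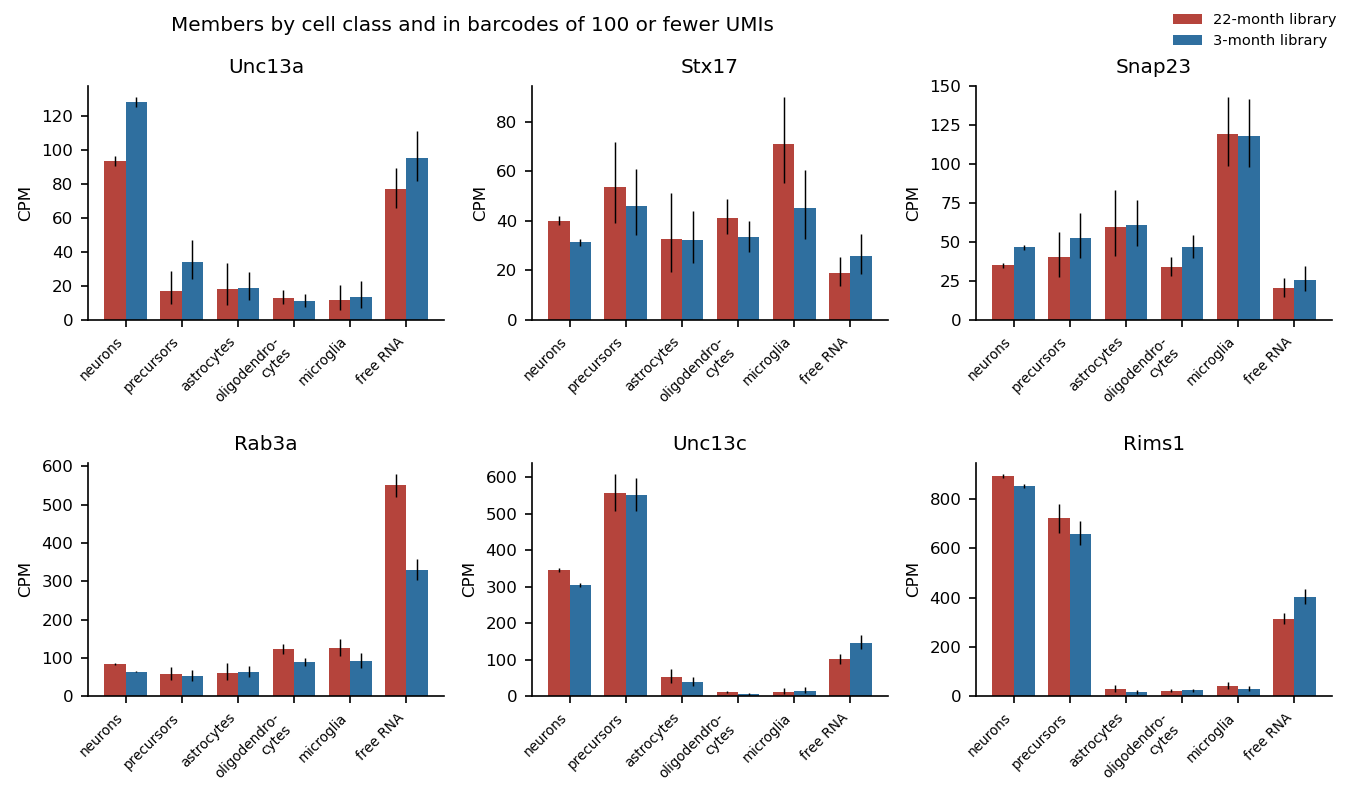
Level in CPM of 6 members in neurons, oligodendrocyte precursors, astrocytes, oligodendrocytes, microglia and free RNA (barcodes of 100 or fewer UMIs), in the 22-month and the 3-month library, with exact Poisson 95% intervals. Rab3a is highest in free RNA, Snap23 in microglia, and Unc13c in precursors.

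Neuron types were then compared one by one. Neurons fell into 23 sub-clusters made without the member genes, and 22 had 20 or more nuclei in each library. A member was compared where it had 100 or more UMIs, which gave 841 pairs of member and sub-cluster. Of these, 170 passed the 25% threshold in either direction (20.2%, all genes 24.2%), 80 of them higher in the aged library and 90 lower. Of 37 members compared in 15 or more sub-clusters, Rab3a was above 1 in every one (2.70%, all genes 3.30%), and Unc13a and Snap23 were below 1 in every one (5.41%, all genes 4.01%).

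Unc13a was below 1 in 20 of 20 sub-clusters and past the threshold in 14. Its lowest ratio was 0.587 (0.521 to 0.661), in the Drd2 striatal-like sub-cluster led by Drd2, Adora2a and Penk, at 86.9 CPM aged and 148 young. Its highest was 0.968 (0.627 to 1.47), in a small sub-cluster led by Onecut2 and Fam163a. Snap23 was below 1 in 15 of 15 and past the threshold in 6, from 0.607 in the Drd1 striatal-like sub-cluster led by Prkch and Pdyn to 0.95. Rims4 was below 1 in 13 of 14. Rab3a was above 1 in 18 of 18, from 1.09 to 1.71, with the limit on free RNA given above. Stx17 was above 1 in 14 of 15, and Syt4 in 21 of 22, although Syt4 did not pass the threshold over all neurons.

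**Figure D3:**
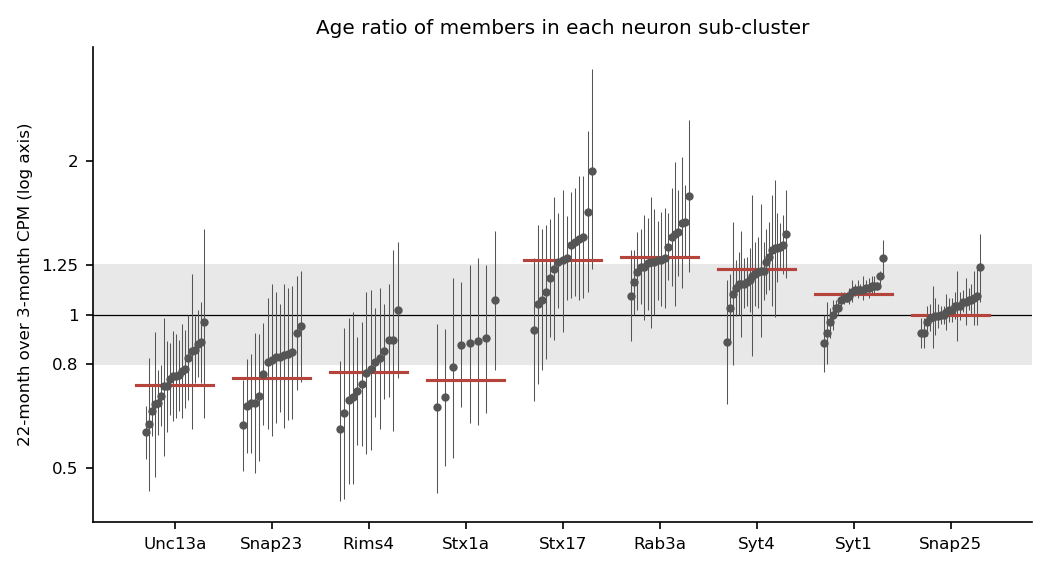
Ratio of CPM in the 22-month to the 3-month library (log axis) for 9 members, one point per neuron sub-cluster with its 95% interval, sorted by value, with the red line at the ratio over all neurons and the 25% band in grey. All points of Unc13a and Snap23 lie below 1 and all of Rab3a above 1.

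The Sim1 paraventricular and supraoptic-like sub-cluster, led by Trh, Sim1 and Avp, held 222 aged and 256 young nuclei. Avp is the gene of the vasopressin neurons named in the study's title. Of 49 members compared there, 8 passed the threshold (16.3%, all genes 24.3%), 4 higher in the aged library and 4 lower. Syt4 had 223 CPM aged and 163 young (1.37, 1.20 to 1.57). Unc13a had 98.9 and 126 CPM (0.783, 0.655 to 0.934), and Syn1, a synapsin, 127 and 164 (0.775, 0.663 to 0.906). Syt5, a synaptotagmin, had 65.1 and 88.1 CPM (0.738, 0.593 to 0.917). The other members past the threshold were Rab3a (1.26), Stx4a (1.52), Rims4 (0.680) and Syt2 (1.35), and the interval of Syt2 held 1.

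GABAergic neurons gave the same 2 higher and 5 lower members as all neurons, of which they make up most (all genes 7.67% and 9.79%). In glutamatergic neurons, 659 aged and 948 young nuclei, 5 of 53 members were higher in the aged library (9.43%, all genes 9.10%): Stx17, Rims3, Syt9, Rab3a and Syt4. Another 3 were lower (5.66%, all genes 10.6%): Stx1a, Syt5 and Unc13a. These calls rested in part on the Slc17a7-led sub-cluster. Without it, a choice made after these calls were seen, 4 of 51 members were higher (7.84%, all genes 7.03%) and 2 lower (3.92%, all genes 10.4%). Stx17, Rims3, Syt9 and Syt5 were called in both sets. Rab3a (1.24), Syt4 (1.23), Stx1a (0.873) and Unc13a (0.821) no longer passed, and Vamp2 (1.29) and Syt10 (0.726) did. The narrowed set still differed in make-up. A thalamic-like sub-cluster led by Tcf7l2 and Rnf220 gave 131 of its 645 aged and 117 of its 811 young nuclei. Over all neurons, with each sub-cluster weighted alike in both libraries, Rims3 was at 1.06 and Syt9 at 1.05. Stx17 ran from 1.26 to 1.33 over all alternative settings. The part of make-up in the glutamatergic calls was not tested.

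Levels of many members differed widely between neuron types. In 23 of 55 members the highest sub-cluster was at least 2 times the median sub-cluster in both libraries (41.8%, all genes 32.3%), and in 5 it was at least 5 times (9.09%, all genes 7.68%). The same sub-cluster was highest in both libraries for 27 of 55 members (49.1%, all genes 33.4%). Over the 22 sub-clusters, the Spearman correlation of a member's levels between both libraries had a median of 0.81, as a description, since the sub-clusters share the libraries.

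Syt6, a synaptotagmin, was highest in the Drd3 granule-like sub-cluster led by Folh1 and Rreb1, at 704 CPM aged and 759 young, where the median sub-cluster had 22.4 and 21.8. The same nuclei were the lowest of all for Unc13c, at 7.29 and 11.4 CPM. Unc13c was highest in the Drd2 striatal-like neurons (905 and 791 CPM) and high in the Drd1 striatal-like (799 and 654) and the Sim1-like (690 and 567) neurons. Cplx2 was also highest in the Drd3 granule-like nuclei (219 and 314), as were Syt12 (82.9 and 79.6) and Syn2 (1182 and 1166).

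Syt10, a synaptotagmin of peptide and growth factor vesicles, was highest in the suprachiasmatic-like sub-cluster led by Prr5l, Rorb and Vipr2, at 362 CPM aged on 121 UMIs and 319 young on 158, against a median of 31.2 and 31.4. Syt7, the slow calcium sensor, was lowest there (5.99 and 22.2 CPM) and highest in the thalamic-like neurons led by Tcf7l2 and Rnf220 (357 and 379). Syt2, the fast sensor of many inhibitory synapses, had 0 UMIs in the suprachiasmatic-like nuclei of both libraries. It was highest in the Onecut2-led sub-cluster in the aged library (89.5 CPM on 24 UMIs) and in the one led by Gbx1 and Sox6 in the young (103 CPM). Rab3b was high in the cholinergic-like neurons led by Slc5a7 and Chat (146 and 166 CPM) and in those led by Ebf2 (147 and 147). It was low in the Drd2 striatal-like neurons (4.82 and 6.10 CPM).

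**Figure D4:**
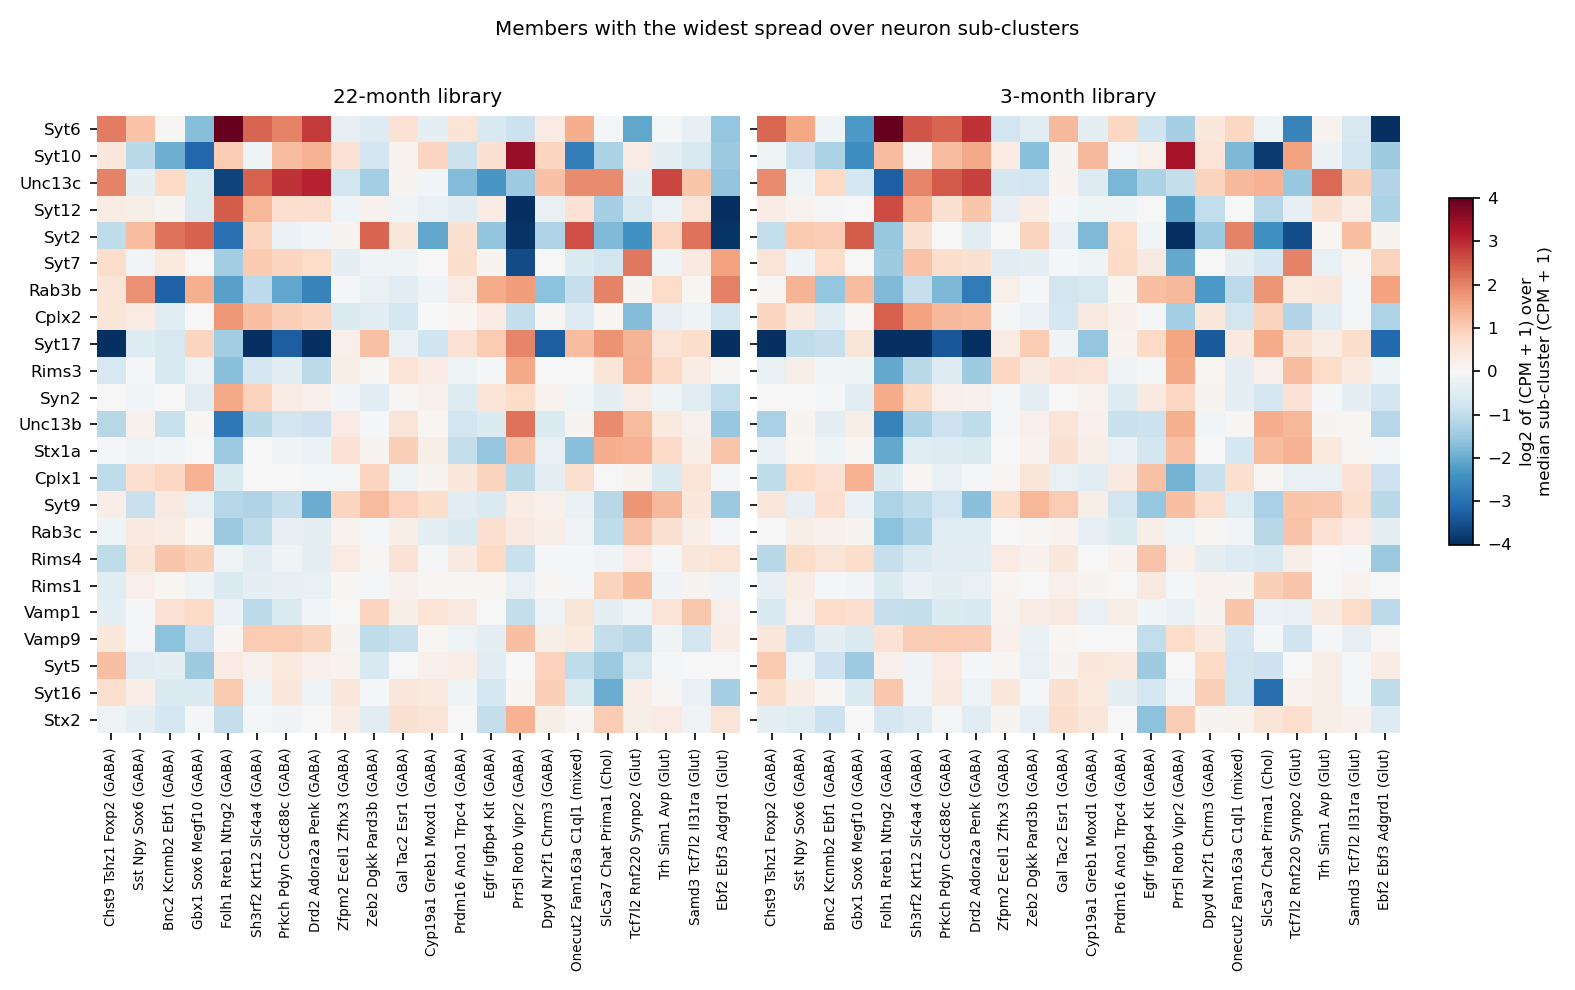
Levels of 23 members (rows) in 22 neuron sub-clusters (columns, by their leading genes and transmitter), as log2 of CPM plus 1 over the same for the median sub-cluster, in each library. The pattern of Syt6, Unc13c and Syt10 across sub-clusters looks alike in both libraries.

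Between transmitter types, 7 of 55 members were at least 1.5-fold higher in glutamatergic than in GABAergic neurons in both libraries (12.7%, all genes 5.48%). They were Syt13, Unc13b, Rims3, Stx1a, Syt9, Syt17 and Rab3c, and Syt17 had the largest ratio, 2.55 aged and 2.67 young. Another 3, Syt6, Vamp9 and Cplx2, were lower (5.45%, all genes 5.47%), with Syt6 at 0.177 and 0.129. The same 7 and 3 members were called without the Slc17a7-led sub-cluster (all genes 6.24% and 6.28%).

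Compared with oligodendrocytes, 31 of 55 members were at least 2-fold higher in neurons in both libraries (56.4%, all genes 28.1%) and 3 were lower (5.45%, all genes 11.9%). Rims1 had the largest ratio by the smaller of both libraries, 40.0 aged and 36.5 young, followed by Unc13c (33.0 and 55.0), Syt16 (21.1 and 31.6), Syt1 (20.5 and 27.6) and Syt6 (14.7 and 21.9). Some of these genes were also read in other glia. Oligodendrocyte precursors, glia that receive synapses from neurons, held Rims1 at 721 CPM aged and 659 young and Unc13c at 556 and 551, the latter above the level in neurons. Syt1 was at 90.1 and 147 CPM in precursors, against 978 and 1282 in free RNA.

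The members at least 2-fold lower in neurons than in oligodendrocytes were Stx4a (0.304 aged and 0.276 young), Vamp7 (0.413 and 0.316) and Syt11 (0.446 and 0.396), which serve general membrane traffic. Syt11 had 627 and 655 CPM in oligodendrocytes and 280 and 259 in neurons. Vamp2 (0.532 and 0.625) and Stx6 (0.638 and 0.623) were lower by less. Below the UMI minimum in neurons, Vamp5 had 28.0 and 16.9 CPM in oligodendrocytes and Vamp8, a SNARE of secretory cells outside neurons, 47.3 and 63.3 in microglia.

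Some members were also compared between the ages in glia. In oligodendrocytes 8 of 25 members were higher in the aged library (32.0%, all genes 17.1%): Snap25, Syn2, Rab3a, Syt1, Vamp2, Cplx2, Rab3c and Syt4. Syt1 had 142 CPM aged and 95.4 young (1.49, 1.29 to 1.71), and the summed neuron markers in these nuclei were 1258 and 988 CPM. The part of neuronal RNA in this difference was not tested. Snap23 was lower in oligodendrocytes too, at 33.7 and 46.7 CPM (0.722, 0.562 to 0.924), as was Syn3 (0.794), which makes 2 of 25 lower, against 5.33% of all genes. In microglia 4 of 9 were higher (44.4%, all genes 13.5%): Rab3a, Stx7, Syt1 and Stx8. Stx7, an endosomal syntaxin, had 211 and 152 CPM (1.39, 1.12 to 1.72), and Syt1 had 141 and 109 (1.29, 0.995 to 1.68). The summed neuron markers in microglia were 1602 and 1494 CPM. In astrocytes 2 of 5 members were higher (40.0%, all genes 11.8%), Rims2 at 379 and 269 CPM (1.41) and Syt1 at 227 and 63.3 (3.58), beside summed neuron markers of 1761 and 860. In oligodendrocyte precursors 0 of 12 were higher (all genes 12.7%) and 1 was lower (8.33%, all genes 13.1%). That was Syt1, at 90.1 and 147 CPM (0.614, 0.459 to 0.815), beside summed neuron markers of 4812 and 4707. The part of free RNA in these glial values was not tested. Snap23, highest in microglia, had 119 and 118 CPM there.

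A further 53 genes of docking, priming, recycling and vesicle filling outside the members were listed, and 51 had 200 or more UMIs in neurons. Of these, 2 were higher in the aged library (all genes 7.80%) and 1 lower (all genes 10.1%). The ratio was above 1 in 32 of the 51 and below 1 in 19, where 54.5% of all genes were above 1. The median log2 ratio of the 51 was 0.04, and that of all genes 0.02. Slc32a1, the vesicular GABA transporter, had 161 CPM aged and 122 young (1.32, 1.28 to 1.37), and in free RNA 246 and 199. Doc2a, a calcium sensor of spontaneous release, had 6.14 and 4.80 CPM (1.28, 1.08 to 1.52). Slc17a7, a vesicular glutamate transporter, had 0.537 and 6.08 CPM, 11.3-fold lower (7.54 to 17.7), on 25 and 339 UMIs. It leads the sub-cluster with 14 aged and 137 young nuclei, and the part of those nuclei in this ratio was not tested.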

How the data were processed

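Per the labels, nuclear RNA of 1 pool of 5 male mice per age was profiled. The authors deposited unfiltered UMI counts per gene and barcode, not normalised. Per the file headers, Cell Ranger 4 wrote them. The sources used here do not give the build, the annotation, or the treatment of intronic reads and strand. From these counts, barcodes with at least 500 genes and at most 5% mitochondrial UMIs were kept (8597 aged, 10437 young). Scrublet in scanpy 1.11.5 marked 368 (4.281%) and 489 (4.685%), which were left out. Clustering used 2000 variable genes without the members, 30 principal components, 15 neighbours and Leiden resolution 1, and neurons were clustered again alone. Cell types are rebuilt, not the authors'. Within each library and class, UMIs were added up and scaled to CPM. Folds carry exact conditional binomial 95% intervals, and CPM exact Poisson ones. Called means at least 25% apart with 200 or more UMIs (100 in sub-clusters). Gene lengths are from GENCODE M21. The calculation was tested on simulated data. Individual values were given for members called in neurons, the leading member per kb of each role, the 8 most restricted by sub-cluster, the 5 highest and 5 lowest between neurons and oligodendrocytes (among those with 200 or more UMIs), and the leading pathway genes. A few others are named beside them, chosen after their values were seen. Members, lists and rules were chosen with earlier results of these data known. Leaving out the Slc17a7-led sub-cluster, subtracting 50% of the free RNA, and levels per kb less free RNA, were choices made after seeing the data. The values of 1 member are not reported here, and it is counted in the totals only.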

Additional observations from a re-analysis of the deposited data

Results flagged for a closer look

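The age ratio of 4 members went in opposite directions, past 1.5-fold with an interval away from 1, in different neuron sub-clusters. With 1 library per age, the difference between sub-clusters was not tested in any of them, and these are extremes over many pairs. No share over all genes is given beside this count, so it says nothing about the members as a set. Syt2 had a ratio of 2.19 (1.62 to 2.98) in the sub-cluster led by Zeb2 and Dgkk, at 75.6 CPM aged and 34.5 young, and 0.637 in the Drd1 striatal-like one. Unc13c had 2.09 (1.56 to 2.83) in the thalamic-like neurons, at 84.2 and 40.2 CPM, and 0.600 (0.449 to 0.799) in the Zeb2-led ones. Syt10 had 0.398 (0.302 to 0.522) in the thalamic-like neurons, at 39.1 and 98.3 CPM, and 1.57 in the Foxp2 Tshz1-like ones. Stx4a had 1.52 (1.01 to 2.31) in the Sim1-like neurons and 0.553 (0.384 to 0.788) in the Drd1 striatal-like ones. An estimated 56.7% aged and 41.9% young of the neuronal UMIs of Stx4a were free RNA. Its ratio over all neurons was 1.01 as counted and 0.758 with the free RNA subtracted.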

How the results depend on the processing

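No paired analysis was possible because there was 1 library per age, and no replicate could be left out. Of members past the 25% threshold in neurons, 2 were higher in the aged library (all genes 7.80%). The number became 1 with the estimated free RNA subtracted (all genes 7.18%) and 1 with 50% of it subtracted (all genes 6.93%). It became 0 at 1.5-fold (all genes 1.34%) and 3 of 63 with no UMI minimum (all genes 16.8%). The number lower, 5 (all genes 10.1%), became 1 at 1.5-fold (all genes 4.22%) and 4 without the Slc17a7-led sub-cluster (all genes 10.1%). It became 6 with the free RNA subtracted (all genes 14.3%). With a minimum of 50 UMIs it was 6 of 57 (all genes 13.7%), and with no minimum 7 of 63 (all genes 19.9%). Of the other release genes, the 2 higher became 1 with every nucleus weighted alike (all genes 7.55%) and 0 at 1.5-fold (all genes 1.34%). They became 4 with a minimum of 50 UMIs (all genes 10.7%) and 4 with no minimum (all genes 16.8%). The ratio of Rab3a was 0.857 with the free RNA subtracted and 1.15 with 50% subtracted, and the cause was not tested. Of the age ratios of the 7 members past the threshold under the alternatives, 61 kept their direction and moved by less than their counting interval. Another 1 moved by more, and 1, that of Rab3a with the free RNA subtracted, reversed. Members inside the band were not counted there, and some near 1 changed direction, such as Vamp3 in 5 of 9 settings and Stx4a in 4 of 9. Scaling by trimmed means shifted all log2 ratios by 0.020. The sub-cluster with the highest level was the same in both libraries for 27 of 55 members at Leiden resolution 1, among 22 sub-clusters (all genes 33.4%). It was the same for 33 at resolution 0.5, among 16 sub-clusters, and for 22 at resolution 2, among 35. No share over all genes is given at 0.5 and 2, so those counts say nothing about the members as a set. Members of low level are limited by counting error, by free RNA and by the spread between animals and libraries, which was not measured.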
